A study of Mus musculus with 8 samples.

Results

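The cells described here are the single hematopoietic stem cells (HSCs) of the control group, taken as the cells whose column names carry the WT prefix. They numbered 262 without and 42 with high levels of oocyte transcripts, as defined below, out of 586 cells in all. They came from the bone marrow of adult C57BL/6 mice labelled wild type, in 4 batches, and the other 282 cells of the series came from Med23-/- mice and were used here only to count the series. In the study WT stands for Mx1-cre-negative littermates with floxed Med23 alleles (Med23 L/L), so the control mice share these alleles with the deleted mice. The methods used here state neither whether the control mice of these batches received poly(I:C), the agent that switches Mx1-cre on, nor how many mice were pooled. The cells were sorted as lineage-negative, Sca1-positive, cKit-positive (LSK) cells of the CD150+CD34-CD48- phenotype and were then picked by hand. Column names number the cells and give no batch, mouse or barcode. They were therefore treated as 1 pool without replicates, no test between batches or animals was possible, and barcodes shared by batches could not be counted; no pair of cells had identical values.

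HSCs are rare cells of the bone marrow that renew themselves and give rise to all blood lineages. Most of them rest outside the cell cycle, which transcription factors such as Gata2, Hlf and Meis1 and signals from the niche help to maintain. They are commonly isolated by the surface proteins Sca1 (encoded by Ly6a), cKit (Kit), CD150 (Slamf1) and the endothelial cell adhesion molecule ESAM (Esam).

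Each value below is a number of counted molecules, so the primer that makes them countable is shown first. The messenger RNA of a cell was copied from its poly(A) tail with 1 of 96 primers that carry different cell barcodes. In primer 1 the capitals mark the 8-base cell barcode and then the 8 random bases of the unique molecular identifier (UMI), before 25 T.
Barcode-RT primer1: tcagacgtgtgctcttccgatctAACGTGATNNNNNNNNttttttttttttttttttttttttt
The random bases can take 65536 forms, and the largest count of a gene in a control cell was 10042, of Rn45s, the precursor transcript of ribosomal RNA. Since each molecule is tagged at its 3′ end, the counts are not divided by transcript length.

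In the control cells 22155526 UMIs were counted over 10720 genes. A cell held 8038 to 496293 UMIs, with a median of 48754, and 1952 to 6725 genes, with a median of 3624.5. Of the entries above 0, 24.6% were a count of 1 and 47.7% were over 5. The study states a minimum of 2000 genes and 20000 transcripts a cell. Over the genes in the table, 259 cells reached both, 45 lay under 20000 UMIs and 3 under 2000 genes. After thinning at random to 20000 UMIs, the 259 cells showed 1812 to 3958 genes, with a median of 2946. Pairs of these cells had a median Pearson's r of 0.539 across genes on the log2(CPM/100 + 1) scale, and single pairs ranged from 0.333 to 0.721. CPM is the number of UMIs of a gene per 1000000 UMIs of the cell, genes are not independent replicates, and counting error at this depth lowers r.

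A part of the control cells stood apart by transcripts of the oocyte. Zp3 encodes a protein of the egg coat, H1foo the linker histone of the oocyte, Dppa3 a maternal factor of the early embryo and Gdf9 a growth factor secreted by the oocyte. Summed over these 4 genes, 42 of the control cells (13.8%, exact Clopper-Pearson interval 10.1% to 18.2%, counting error only) exceeded 1000 CPM and are called oocyte-rich below. The class is a range of a level and not a cell type. Most of these cells were numbered 227 or higher in column order, and each of the cells 267 to 276 was among them. Since columns give no batch, differences between oocyte-rich and other cells cannot be told apart from batch or order. There were 33 cells between 500 and 2000 CPM, 39 cells at 0, and a highest cell at 30388.4 CPM, or 3.04% of its UMIs. The oocyte-rich cells held 90.7% of all UMIs of the 4 genes. Their median was 56529 UMIs against 48145.5 in the other 262 cells, and 2930 against 2949.5 genes at 20000 UMIs.

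Further oocyte genes moved with the 4 that define the class. Of 31 such genes in the table, 31 had a mean level over 2 times higher in the oocyte-rich cells and 28 over 5 times higher, whereas 11.2% and 3.32% of all genes did. Genes of low mean count had been removed, so an oocyte gene could enter the table largely through oocyte-rich cells. The shares of all genes are therefore not an even background for these counts. Khdc3 and Ooep, members of the maternal complex of the egg, stood at 656 against 19.95 CPM and at 562 against 26.4 CPM. Bcl2l10, an anti-apoptotic protein of the oocyte, stood at 440 against 8.13 CPM. The smallest ratio of the 31 belonged to Tle6, at 271 against 95.3 CPM. All 356 genes over 5 times higher took a median of 3.49% and at most 18.5% of the UMIs of an oocyte-rich cell, against a median of 0.280% in the other cells.

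The 4 oocyte genes were not absent outside the class. Since their sum defines the class, the differences in their levels below are set by that rule. Without thinning, Zp3 had a UMI in 160 of the other 262 cells (61.1%), with a mean of 41.4 CPM against 1613.6 CPM in the oocyte-rich cells. Dppa3 had a UMI in 58.4% of the other cells, H1foo in 46.9% and Gdf9 in 45.8%. The share of each gene in the sum was not the same in both classes. H1foo gave 34.0% of the 4 genes' UMIs in oocyte-rich cells and 21.96% in the others, and Gdf9 gave 11.6% and 19.6%. The table holds a pair of granulosa cell genes, Serpine2 and Inhba, and 254 cells had no UMI of either. The source of the oocyte transcripts was not tested.

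**Figure D1:**
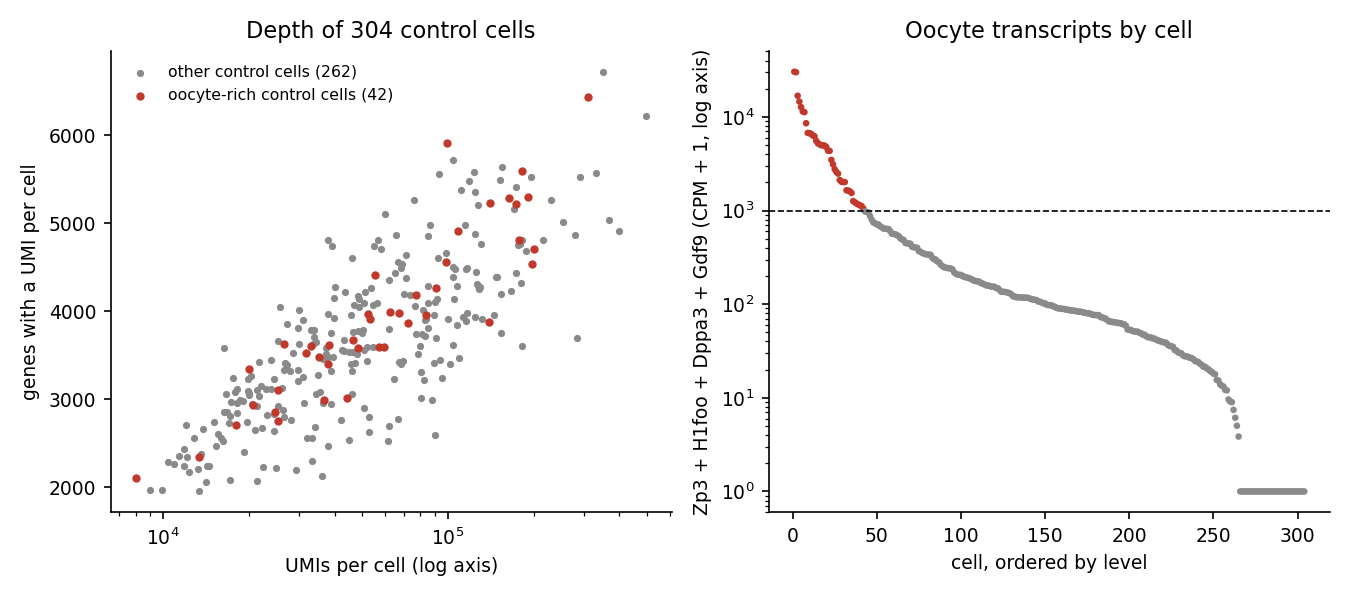
Left, UMIs (log axis) against genes with a UMI for each control cell, with the 42 oocyte-rich cells in red; they reach from 8038, the lowest total of all cells, to 310024 UMIs. Right, the summed level of Zp3, H1foo, Dppa3 and Gdf9 (CPM + 1, log axis) of each cell in order, with the limit of 1000 CPM dashed; 33 cells lie between 500 and 2000 CPM, so the limit cuts a continuous range.

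The label of the cells was checked against the 4 markers. A level below is the mean CPM over all control cells. A share is the percentage of the 259 thinned cells with at least 1 UMI of the gene, with its exact Clopper-Pearson interval. Ly6a stood at 341 CPM, with quartiles over cells of 18.7 and 478 and a highest cell of 7870.1 CPM, and was seen in 70.7% of cells (64.7% to 76.1%). Kit, the receptor of stem cell factor, stood at 153 CPM, with quartiles of 21.5 and 234, and was seen in 69.5% (63.5% to 75.05%). Both were thus found in most cells, at levels that spread over more than their mean. Esam stood at 119 CPM, with quartiles of 0 and 195, and was seen in 54.8% (48.5% to 61.0%). Slamf1, which encodes the CD150 used for the sort, stood at 31.0 CPM, with quartiles of 0 and 18.0, and was seen in 21.2% (16.4% to 26.7%). The cells were gated on Slamf1's protein, and its messenger was the least often seen of the 4.

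Of the 259 thinned cells, 17 held UMIs of all 4 markers, 81 of 3, 103 of 2, 43 of 1 and 15 of none. With all UMIs of all control cells, 60 held all 4 and 6 held none. Among the proteins the gate excludes, Cd34 was seen in 70.3% of cells (64.3% to 75.8%) at 171 CPM, about as often as Kit, although the cells were gated as CD34- by protein. Cd48 was seen in 4.63% (2.42% to 7.95%). Flt3, a receptor of multipotent progenitors, was seen in 14.7% (10.6% to 19.6%), and Itgam, a myeloid antigen, in 1.54% (0.422% to 3.91%). The gate given above does not name the protein of Flt3, and the study's listed lineage antibodies do not include that of Itgam. Without oocyte-rich cells the shares were 70.5% for Ly6a, 70.5% for Kit, 58.2% for Esam and 21.8% for Slamf1. In the oocyte-rich cells Esam was seen in 35.9%, and its mean was 81.6 CPM against 125 CPM in the others. Ptprc, the pan-leukocyte antigen CD45, stood at 90.2 against 169 CPM, whereas Kit stood at 166 against 151 CPM. The part of oocyte transcripts in these differences was not tested.

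**Figure D2:**
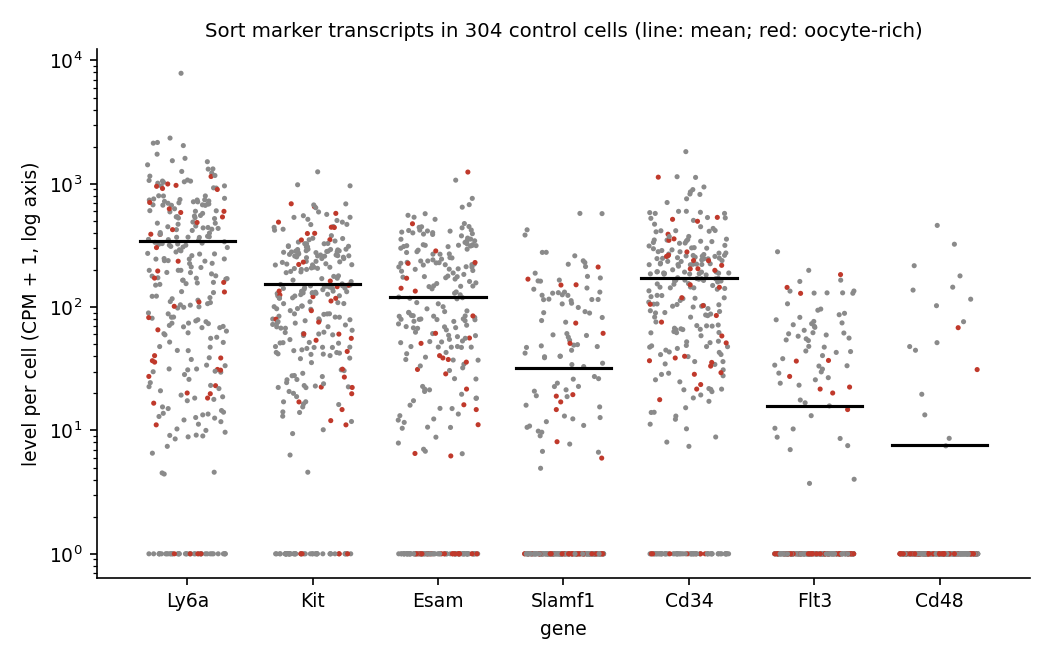
Levels of the 4 markers Ly6a, Kit, Slamf1 and Esam and of Cd34, Cd48 and Flt3 in each control cell (CPM + 1, log axis), with the mean as a line and oocyte-rich cells in red. Slamf1, Cd48 and Flt3 are at 0 in most cells, with medians of 0, while the medians of Ly6a and Kit are 151 and 95.5 CPM.

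The counted UMIs of the control cells were spread over many genes. The 10 most abundant genes took 9.19% of the level, the 100 most abundant 34.6% and the 1000 most abundant 65.2%. The first were Rn45s at 16829.5 CPM and Malat1, a nuclear long noncoding RNA, at 16469.6 CPM. Among the others were Rpl37a and Rpl13 of the large ribosomal subunit at 8410.5 and 8233.1 CPM. B2m, the light chain of MHC class I, stood at 7572.2 CPM and Actb, cytoplasmic actin, at 5638.7 CPM. Rpl41, Rps29 and Rpl17 were also among the 10, at 6431.0, 5709.5 and 5305.5 CPM. The 78 ribosomal protein genes together took 24.0% of the level and from 6.99% to 33.6% of single cells. Reads of ribosomal protein genes can be split with their pseudogene copies, so their single values are uncertain.

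Detection followed abundance. At 20000 UMIs 332 genes were seen in 90% of cells or more, 1491 in 50% to 90%, 5855 in 10% to 50% and 3042 in under 10%. In all, 1823 of 10720 genes (17.0%) were seen in at least 50% of cells, and 1865 (17.4%) without oocyte-rich cells, when 20 genes left this class and 62 entered it. The median mean level was 700 CPM for genes seen in 90% or more of the cells and 153 CPM for those in 50% to 90%. At similar detection levels differed, since the 635 genes seen in 45% to 55% of cells ranged from 40.6 to 259 CPM, the highest being Zp3. That top value is set by the class rule, as Zp3 stood at 41.4 CPM in 41.8% of cells without oocyte-rich cells. Jun, which the rule did not use, stood at 160 CPM in 49.4%. If each gene had the same share of the UMIs in every cell, counting error alone would give a gene's Poisson share of cells. Of the genes, 10594 (98.8%) were seen in fewer cells than that, and of 4504 genes with a Poisson share of at least 50%, 2681 (59.5%) were seen in under 50%. Whether technical noise or differences between cells lowered these shares was not tested. A median of 81.6% of a gene's UMIs lay in its 30 highest cells.

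**Figure D3:**
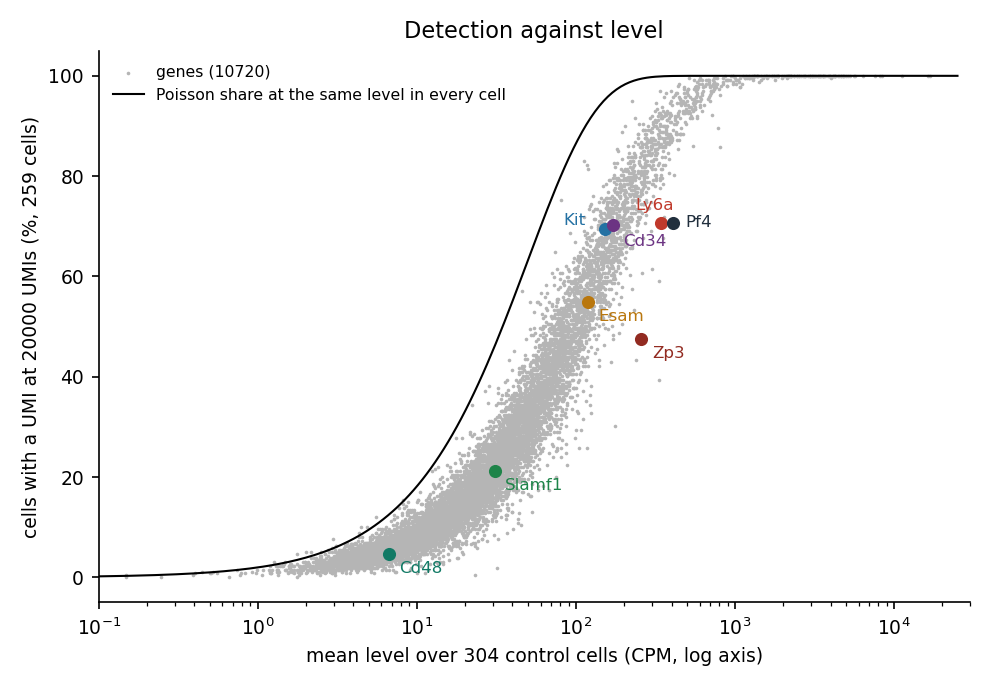
Mean level (CPM, log axis) against the percentage of the 259 control cells with a UMI at 20000 UMIs, for each of the 10720 genes, with the share that counting error alone would give at that level drawn as a line. Nearly all genes lie under the line. Zp3, part of the sum that defines the oocyte-rich class, has the highest level of the genes seen in 45% to 55% of cells.

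Variability between cells was measured as the excess squared coefficient of variation (excess CV2). It is the variance over the squared mean of a gene's counts scaled to equal cell totals, less the Poisson error of counting UMIs. A value of 0 stands for Poisson error alone and 1 for a further standard deviation as large as the mean. Technical noise of other kinds is not subtracted and could not be told apart from differences between cells. Without thinning, genes seen in under 10% of cells at 20000 UMIs held a median of 5.81 UMIs where seen. Among 5217 genes with a mean of at least 2 UMIs a cell its median was 2.90, and 4541 genes (87.0%) were over 1. Without oocyte-rich cells the median was 2.77 and 4511 genes (86.5%) were over 1. The measure fell with abundance, from a median of 4.32 at 2 to 5 UMIs to 1.29 at 10 to 20 UMIs and 0.147 at 100 UMIs or more. The 10 lowest genes all encode ribosomal proteins, led by Rps14 (0.0654) and Rps19 (0.0656), and of 77 ribosomal protein genes 1 was over 1, against 87.0% of all genes. Without oocyte-rich cells Rps6 took the place of Rps27a among these 10.

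The highest values often rested on very few cells. Tlk1, a chromatin kinase, had an excess CV2 of 59.8, and 4.36 once its highest cell, at 8312.6 CPM and with 12.2% of its UMIs, was left out. Cyp4f13, a cytochrome P450, had 59.8, and 8.94 without its highest cell. Cpsf4l had 61.5, the highest of all, and 7.55 without oocyte-rich cells. Cd164l2 fell in the same way from 35.4 to 1.19 and Fbxw26 from 57.8 to 23.7. Gm1965 rose from 50.7 to 195 and Map3k6 from 45.2 to 50.3. The minimum of 2 UMIs was set over all control cells. Without oocyte-rich cells the mean fell from 32.5 to 2.70 CPM for Cpsf4l and from 45.1 to 2.85 CPM for Cd164l2. It fell from 27.5 to 5.89 CPM for Fbxw26, from 36.8 to 15.8 CPM for Gm1965 and from 53.2 to 12.1 CPM for Map3k6. The values of these genes without oocyte-rich cells thus rest on low counts. Of all 5217 genes, 5057 (96.9%) changed by less than 1.5 times without oocyte-rich cells, 59 fell by more than 2 times and 11 rose by more than 2 times.

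To set genes of different abundance side by side, the excess CV2 without each gene's highest cell was divided by the median of the genes nearest to it in mean count. This relative CV2, added after the data were seen, was over 1 in 49.2% and over 2 in 5.02% of genes, and in 49.3% and 4.81% without oocyte-rich cells. The highest genes were H1foo (20.3, and 6.15 without oocyte-rich cells) and Zp3 (17.8 and 2.24). Both are in the sum that defines the class, so their fall without these cells was fixed in advance. Pf4, platelet factor 4 of megakaryocytes, came next and, not being used by the rule, kept its value (15.99 and 15.7). It had a UMI in 70.7% of cells, its mean was 410 CPM and its highest cell stood at 11004 CPM, and 81.8% of its UMIs lay in 30 cells. Akap5, a kinase anchoring protein, had 11.2 and 11.0. Ldhb, a lactate dehydrogenase subunit, fell from 10.5 to 2.17. Hmgb2, a chromatin protein abundant in cycling cells, had 7.73 and 8.71 at a mean of 720 CPM. The lowest value was that of Oaz1, the antizyme of polyamine synthesis, at 0.0372, with a median of 40.5 CPM and a mean of 46.2 CPM.

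**Figure D4:**
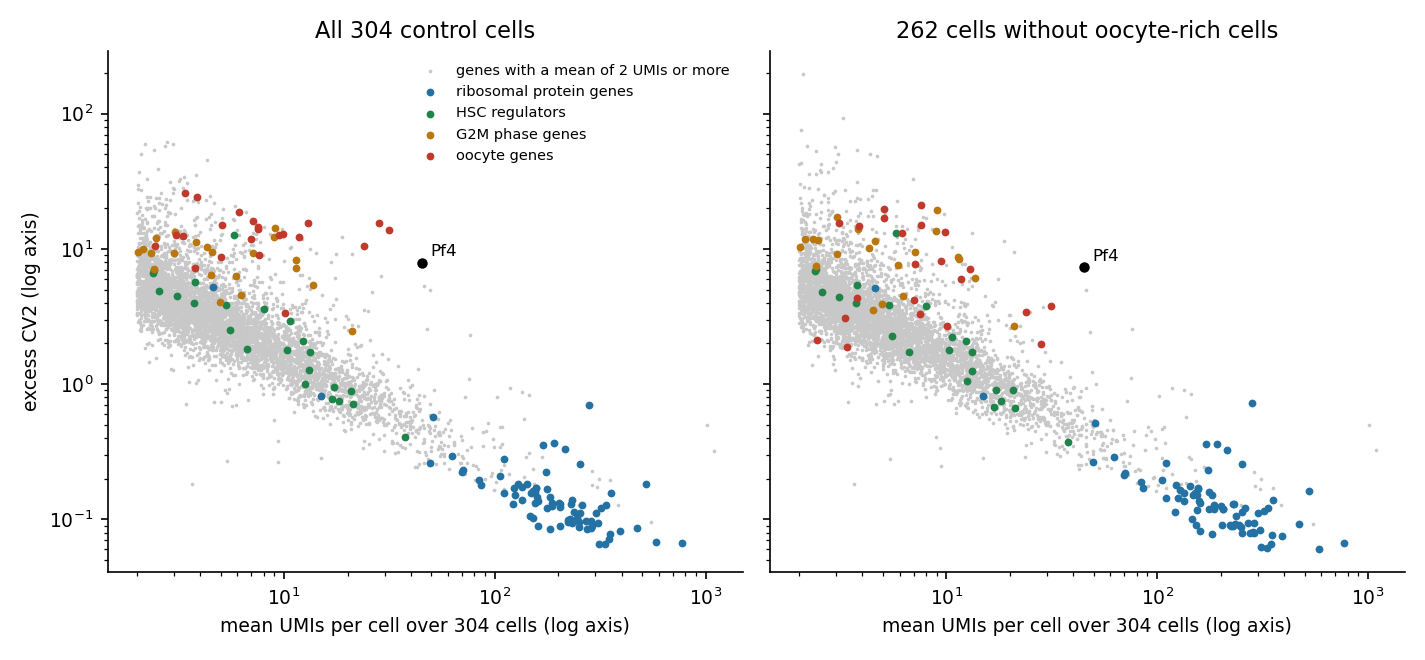
Mean UMIs a cell against excess CV2 (both log axes) of each gene whose mean was 2 UMIs or more, over all control cells (left) and without oocyte-rich cells (right), with ribosomal protein genes in blue, HSC regulators in green, G2M genes in orange, oocyte genes in red and Pf4 in black. Values fall from a median of 4.32 at 2 to 5 UMIs to 0.147 at 100 UMIs or more. On the right Zp3, part of the sum that defines the class, is lower by that rule, at 1.98 instead of 15.4. Pf4, which the rule did not use, is at 7.36 instead of 7.93.

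Of 28 genes that regulate HSCs in the table, 14 were seen in at least 50% of cells, against 17.0% of all genes, and 15 without oocyte-rich cells. Lmo2, a bridging factor of the blood transcription complexes, stood at 582 CPM and was seen in 97.3% of cells. Meis1, a homeobox cofactor, stood at 305 CPM and in 90.7%, and Etv6, an ETS repressor, at 301 CPM and in 85.7%. All these had an excess CV2 under 1, at 0.405, 0.708 and 0.889. Of the 23 regulators with a mean of at least 2 UMIs, 17 were over 1, against 87.0% of all genes, and 11 had a relative CV2 over 1, against 49.2%. Hlf, named after its values were seen, stood at 278 CPM and in 76.8%. The regulators as a group thus varied about as much as genes of like abundance, with a median relative CV2 of 0.997.

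Among 25 surface and secreted proteins of HSCs 13 were seen in at least 50% of cells, against 17.0% of all genes. The interferon-induced membrane proteins Ifitm1 and Ifitm3 stood at 2114.5 and 1507.8 CPM, each in 99.6% of cells, and the GPI-anchored protein Ly6e at 707 CPM in 96.9%. Ifitm1 was the most unequal of these, with a relative CV2 of 3.10. Adgrg1, an adhesion G protein-coupled receptor, was seen in 99.2% of cells with an excess CV2 of 0.313. It and Procr were named after their values were seen. Procr, the protein C receptor of HSCs, stood at 162 CPM and in 54.1% of cells. Of 18 Notch and growth factor receptors, 2 reached 50% of cells, which is not above that share of all genes. They were the interferon receptors Ifngr1 (55.6%) and Ifnar2 (50.2%), and Notch2 was seen in 49.0%.

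Outside the oocyte genes, the genes of cell division had the highest median relative CV2 (2.60) of the lists with more than 1 gene measured. Of 27 genes of G2 and mitosis (G2M) in the table, 1 was seen in at least 50% of cells, where 17.0% of all genes were. It was Smc4, a condensin subunit, in 73.0%. Of the 21 with a mean of at least 2 UMIs, 21 had a relative CV2 over 1 and 15 over 2, and without oocyte-rich cells 21 and 16, where 49.2% and 5.02% of all genes passed these limits over all cells. Birc5 (survivin) and Top2a (topoisomerase II) stood at 116 and 115 CPM, with medians of 14.5 and 0 CPM, and in 39.4% and 35.1% of cells. Of 25 S phase genes 8 were seen in at least 50% of cells, against 17.0% of all genes. Among them were the replication factors Rfc2 (77.2%) and Pcna (66.8%) and the histone mRNA binding protein Slbp (67.6%). Of 22 S phase genes 19 had a relative CV2 over 1 and 1 over 2, against the same shares of all genes. Among 17 genes of quiescence and G1 control 4 were seen in at least 50%, a share near the 17.0% of all genes. Ccnd2 (cyclin D2) stood at 1113.7 CPM in 98.5% of cells, Txnip, a restraint on glucose uptake, at 562 CPM in 97.7% and Cdk4 at 347 CPM in 88.8%, while the CDK inhibitors Cdkn1b and Cdkn1c, named after their values were seen, were found in 22.8% and 20.5%.

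The summed level of the 27 G2M genes ranged from 0 to 18483 CPM over cells, with quartiles of 314 and 1046 CPM. Of all control cells 80 exceeded 1000 CPM (26.3%, 21.5% to 31.6%), and without oocyte-rich cells 54 of 262 did (20.6%, 15.9% to 26.0%). This class is again a range, with 125 cells between 500 and 2000 CPM. The cells above the limit had a median of 2447 CPM of the S phase genes against 1210.0 CPM in the others, and a median of 62217.5 UMIs against 45588. Mki67, the proliferation antigen, stood at 177 against 9.63 CPM, a difference that the limit itself favours since Mki67 is in the sum.

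Of the 42 oocyte-rich cells 26 exceeded the G2M limit (61.9%, 45.6% to 76.4%). The G2M genes did not share this pattern evenly. At 20000 UMIs Birc5 was seen in 71.8% of 39 oocyte-rich and 33.6% of 220 other cells, and Cenpf, a kinetochore protein, in 69.2% and 26.4%. Mki67 was seen in 15.4% and 24.5%, with intervals of 5.86% to 30.5% and 19.01% to 30.8% that overlap. Top2a was seen in 41.0% and 34.1%. When Birc5, Cenpf, Ccnb1, Tacc3, Ube2c and Cenpa were left out, a choice made after their values were seen, 13 of 42 oocyte-rich cells (31.0%, 17.6% to 47.1%) and 41 of the other 262 (15.6%, 11.5% to 20.6%) exceeded 1000 CPM. How far these transcripts came with the oocyte transcripts was not tested, and phase cannot be read from these sums alone.

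**Figure D5:**
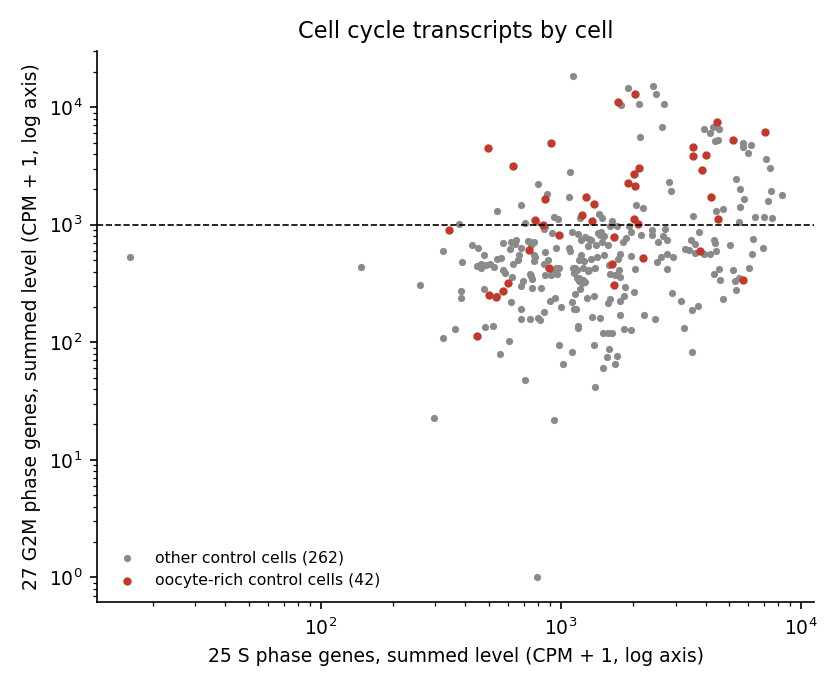
Summed level of S phase genes (horizontal) against that of G2M genes (vertical) (CPM + 1, log axes) in each control cell, with oocyte-rich cells in red and the G2M limit of 1000 CPM dashed. Of the oocyte-rich cells 61.9% lie above the limit, and of the other cells 20.6%.

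The immediate early genes respond within minutes to stimulation and also to cell handling. Of 17 in the table, 2 were seen in at least 50% of cells, Ier2 in 68.0% and Myc in 54.1%, where 17.0% of all genes were. Of 9 with a mean of at least 2 UMIs 7 had a relative CV2 over 1, where 49.2% of all genes did. Fos, the AP-1 subunit, had a mean of 104 CPM and a median of 0 CPM, was seen in 25.9% of cells (20.6% to 31.7%) and had an excess CV2 of 8.96. Jun, its partner, stood at 160 CPM and in 49.4%, with an excess CV2 of 2.76. Without oocyte-rich cells the excess CV2 was 9.15 for Fos and 2.73 for Jun. Across 259 cells at equal depth the genes most alike to Fos were Junb, Ier2 and Jun, with Spearman's rho of 0.355, 0.345 and 0.310, and 0.365, 0.335 and 0.310 without oocyte-rich cells. The share of handling in these levels was not tested.

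The 100 bases before the RefSeq start of Fos, the most unequal of these genes, and of its closest partner Junb are shown 5′ to 3′ on the gene's strand (GRCm38.p6), with TATAAA and TGACGT in capitals. Fos lies at chr12:85473790-85473889 on the plus strand and Junb at chr8:84978749-84978848 on the minus strand.
Fos: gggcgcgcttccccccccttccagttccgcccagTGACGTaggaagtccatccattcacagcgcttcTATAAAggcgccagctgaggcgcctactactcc
Junb: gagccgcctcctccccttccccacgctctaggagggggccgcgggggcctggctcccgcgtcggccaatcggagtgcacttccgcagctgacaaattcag
Fos holds TATAAA from base -33 and TGACGT, a part of the cAMP response element, from base -66 relative to its start, and Junb holds neither. Over 32851 promoters of the same length 3.80% held TATAAA on the gene's strand, 4.09% held TGACGT on either strand and 0.131% held both. A TATAAA that starts at -40 to -20 stood before 46 of 4169 genes with a mean of at least 2 UMIs (1.10%), 7 of the 500 of highest excess CV2 (1.40%, 0.565% to 2.86%) and 9 of the 500 of lowest (1.80%, 0.826% to 3.39%). Without oocyte-rich cells these shares were 1.40% and 1.60%.

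The interferon response genes spanned a wide range of levels. Of 35 in the table, 10 were seen in at least 50% of cells, against 17.0% of all genes, and 9 without oocyte-rich cells. The MHC class I genes H2-K1 and H2-D1 stood at 2170.9 and 1880.3 CPM and, like B2m, were seen in every thinned cell, with excess CV2 of 0.174, 0.204 and 0.0964 and relative CV2 of 0.684, 0.799 and 0.380. Of 20 with a mean of at least 2 UMIs 7 had a relative CV2 over 1, where 49.2% of all genes did, and none over 2. The antiviral genes Isg15 and Mx1, named after their values were seen, stood at 8.77 and 2.27 CPM.

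Genes of the blood lineages differed widely in detection. Of 23 megakaryocyte genes 5 were seen in at least 50% of cells, a share near the 17.0% of all genes, with the transcription factor Nfe2 in 86.5% and the tetraspanin Cd9 in 78.0% beside Pf4. Of 8 erythroid genes Car2, a carbonic anhydrase, stood at 1302.8 CPM in 99.6% of cells, while Klf1, the erythroid master regulator, named after its values were seen, was found in 5.02%. Of 16 granulocyte and macrophage genes 4 reached 50%, likewise near that share, with lysozyme Lyz2 in 86.5%, the transcription factor Spi1 in 62.9% and S100a6 in 65.6%. Of 8 lymphoid genes none did, and the highest, the cytotoxic granule gene Nkg7, was seen in 44.8% of cells and Ikzf1 in 32.8%. Of 3 neutrophil genes the chemokine receptor Cxcr2 was seen in 54.4% of cells, S100a8 in 6.18% and S100a9 in 1.93%, and the macrophage gene C1qa was seen in 1.54%. None of 10 stroma and endothelium genes reached 50%. Bgn, a matrix proteoglycan and the highest of them, stood at 41.4 CPM, and its excess CV2 of 27.8 was 5.12 without its highest cell, which held 19.4% of its UMIs, and 4.76 without oocyte-rich cells.

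Of the 33 Mediator subunits in the table, which link transcription factors to RNA polymerase II, 1 was seen in at least 50% of cells, where 17.0% of all genes were. It was Med28, in 84.2% at 273 CPM. Med13l and Med10 followed at 82.3 and 81.5 CPM. Med23, the subunit deleted in the other mice of the series, stood at 6.76 CPM and was seen in 8.49% of control cells. All 20 subunits with a mean of at least 2 UMIs had an excess CV2 over 1, as did 87.0% of all genes, and 13 had a relative CV2 over 1, as did 49.2% of all genes. Of 28 widely expressed genes 27 were seen in at least 50% of cells, against 17.0% of all genes, and 6 had a relative CV2 over 1, against 49.2%.

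Of 13 histone genes in the table, 6 were seen in at least 50% of cells, against 17.0% of all genes. Of 8 with a mean of at least 2 UMIs, 7 had a relative CV2 over 1 and 4 over 2, against 49.2% and 5.02% of all genes. The replacement histones H3f3b and H3f3a stood at 2151.6 and 1291.2 CPM with relative CV2 of 1.07 and 0.644, and H2afz at 1224.1 CPM with 3.59. Of 8 Gimap GTPase genes 3 reached 50% of cells, where 17.0% of all genes did. These were Gimap6 in 83.8%, Gimap1 in 86.5% and Gimap5 in 56.4%. Metallothioneins were at 0 in 154 control cells, with Mt1 in 30.1% at 20000 UMIs. Of the 4 Y-linked genes Eif2s3y was seen in 46.7% and Ddx3y in 29.7% of cells. At least 1 UMI of the 4 was found in 237 control cells (78.0%), in 170 of 259 at 20000 UMIs (65.6%, 59.5% to 71.4%) and in 141 of 220 without oocyte-rich cells (64.1%). With the cells split by depth into 4 equal parts, shallowest first, the share without thinning was 71.1%, 77.6%, 77.6% and 85.5%. In the deepest part, at 95595 to 496293 UMIs, 11 of 76 cells had no such UMI.

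Some gene groups moved together across the 259 cells at equal depth. These values are descriptions, and all sums share a fixed total of 20000 UMIs. The genes most alike to Mki67 were Ckap2l, Nuf2 and Pbk, all of the mitotic apparatus, with rho of 0.555, 0.533 and 0.532, and 0.547, 0.520 and 0.519 without oocyte-rich cells. Itga2b, the platelet integrin CD41, was most alike to the platelet glycoproteins Gp1bb (0.420 and 0.459) and Gp5 (0.359 and 0.398). Ly6a was most alike to Cd74, the invariant chain of MHC class II (0.351 and 0.377), and Ifitm1 (0.324 and 0.354). No gene reached 0.3 with Slamf1 or Kit. Zp3 was most alike to Fbxw15, at 0.559, and 0.397 without oocyte-rich cells. Among sums over lists without shared genes, HSC surface genes went with interferon response genes (0.542 and 0.562) and against S phase genes (-0.484 and -0.500). The HSC surface list itself holds Ifitm1, Ifitm3 and Ly6e, at 2114.5, 1507.8 and 707 CPM of a mean sum of 7611 CPM, which are known to be induced by interferon. S phase and G2M genes went together (0.381 and 0.375). G2M genes and the 4 oocyte genes had 0.216, and 0.0476 without oocyte-rich cells. Leaving out these cells cuts the range of the 4 oocyte genes, so lower rho with them or with Zp3 can follow from the rule alone.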

How the data were processed

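The 304 control and the 282 Med23-/- HSCs had been profiled by barcoded 3′ RNA-seq. The authors deposited log2(normalized UMI count + 1) values for 10720 genes. They state that cells under 2000 genes or 20000 transcripts and genes of low mean count were removed. Over the genes in the table, 45 control cells lay under 20000 UMIs and 3 under 2000 genes, and the reason was not tested. The build in the submitters' processing notes is mm9, and the aligner is not given in the sources used here. Dividing the back-transformed deposited values of a cell by its smallest value above 0 gave whole counts in 100% of values (tolerance 0.01), which were used throughout with Python 3.11.15, numpy 2.4.6, scipy 1.17.1, pandas 2.3.3 and matplotlib 3.10.9. CPM was taken over the table's genes, and the relative CV2 used the 201 nearest genes. The scripts were tested on simulated data. Doublets were not called, because each cell had been picked manually. Intervals are exact at 95% and cover counting error only. Named genes were the 4 markers, the 10 most abundant, the 10 of highest and of lowest excess CV2 with and without oocyte-rich cells, the 3 most abundant of each list and the 5 most alike to each anchor gene; others were chosen after their values were seen, and some genes that the rule names are not reported here. The members, lists and measures were chosen with earlier results of these data known, and the ribosomal protein list and the relative CV2 were added after the values were seen. Alternatives changed the thinning depth, limits and minimum counts. Promoter sequences are from RefSeq (GRCm38.p6), and no coordinates were converted between builds.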

Additional observations from a re-analysis of the deposited data

How the results depend on the processing

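Of 39 alternatives of the main results 25 kept the value within its limit, which was the 95% interval for shares and the median depth, 1.5 times for counts of genes and the median excess CV2, and 1 SD over cells for levels, and 14 moved it. Cells with at least 2000 genes and 20000 UMIs are the same 259 cells that were thinned to 20000 UMIs. For results on thinned cells this alternative could therefore not move the value, and it is counted among the 25. All 97 alternatives of the 4 markers' levels and of the lists' summed levels stayed within 1 SD over cells, but that SD is wide. Without oocyte-rich cells it still held a fall of the 4 oocyte genes' sum from 952 to 151 CPM, which the class rule sets. It also held a fall of the other oocyte genes' sum from 1343 to 456 CPM. The median depth was 59649 UMIs among cells with at least 2000 genes and 20000 UMIs. Oocyte-rich cells were 27.6% at a limit of 300 CPM and 7.89% at 3000 CPM. Genes seen in at least 50% of cells numbered 1104 when 2 UMIs were required. They numbered 1227 after thinning to 10000 UMIs and 2727 without thinning, against 1823, both within the limit of 1.5 times. The median excess CV2 was 1.65 for genes with a mean of at least 5 UMIs, 0.990 for at least 10 UMIs (added after the data were seen) and 6.50 with no minimum, and genes over 1 numbered 1944 and, at 10 UMIs, 625. Cells with a Y-linked UMI were 78.0% without thinning. Cells over the G2M limit were 20.6% without oocyte-rich cells, 54.9% at 500 CPM, 13.8% at 2000 CPM and 17.8% without the 6 genes (added after the data were seen). The minimum counts change which genes enter; the cause of the other moves was not tested. No paired analysis was possible because cells are named by number only, without a replicate, and nothing here was tested. Leaving out a batch was not run, since cells could not be assigned to batches.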
